A study of Mus musculus with 48 samples.

Results

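The comparison described here is that of newborn diaphragm with and without embryonic myosin heavy chain, Myh3. Its members are the 12 diaphragm libraries of a series of 48, chosen by muscle and genotype in the labels, and every gene of the diaphragm count table. That table holds 16686 genes, of which 14487 had enough reads to be tested. All mice were C57BL/6 at postnatal day 0. The wild-type group (WT, MyH3+/+) has 6 libraries and the knockout group (KO, MyH3delta/delta) has 6. The stretch of Myh3 that the delta allele lacks is not given in the labels, nor are the cells in which it is lost, nor whether each library came from a separate animal. The p-values below therefore measure the spread between libraries. Libraries are called by the number of their column in the table, KO0 to KO5 and WT0 to WT5. The other 36 libraries come from quadriceps, tibialis anterior and gastrocnemius of the same genotypes and are used where the diaphragm is set beside limb muscle.

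Embryonic myosin heavy chain is the motor protein of the first muscle fibres. It gives way around birth to the perinatal chain Myh8 and then to the adult fast chains Myh1, Myh2 and Myh4, while slow fibres use Myh7. The diaphragm is the muscle of inspiration and makes breathing movements before birth. It is a thin sheet with the lungs on one side and the liver on the other, lined by mesothelium on both and pierced by the oesophagus.

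The libraries held between 12.27 M and 21.41 M counts, and levels are given as counts-per-million (CPM) of the scaled library. All 12 skeletal muscle markers were measured in every group, at a summed 69500 to 112800 CPM in KO and 75090 to 103800 CPM in WT. RNA of neighbouring tissues varied far more between libraries than muscle RNA did. The summed level of 19 liver genes was 8673, 13810, 2682, 1066, 159.1 and 5970 CPM in KO0 to KO5, and 1719, 8488, 561.8, 2925, 3195 and 3546 CPM in WT0 to WT5. The groups overlapped over most of their range, and the highest library, KO1, had 86.8 times the sum of the lowest, KO4. All 19 liver genes had a log2 change above 0, with a median of 0.63, and none passed the test even without adjustment. The mesothelial sum was steadier, though some genes of its list followed an epithelial pattern described below. The 12 mesothelial genes summed to between 343.4 and 697 CPM in KO and between 359.6 and 616.8 CPM in WT, and 1 of the 12 had a log2 change above 0.

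Epithelial RNA divided the libraries in 2 further ways. The 6 measured genes of a skin list, keratins of stratified epithelium among them, summed to 650.3 CPM in KO0, 700.4 in KO3, 878.7 in WT1 and 609.1 in WT2, and to at most 58.8 CPM in the other 8 libraries. Krt15, Krt5 and Dsp carried this pattern. Krt15 was at 363 to 531.5 CPM in those 4 libraries and at most 1.06 CPM elsewhere, and Dsp at 78.2 to 127.7 against at most 8.865 CPM. Of the list's epidermal keratins, Krt14 was highest in the same 4 by a smaller margin, at 13.98 to 28.96 against 6.418 to 13.33 CPM. Krt10 was at no more than 3.571 CPM over the 12 libraries. Krt19, which the mesothelial list shares with simple epithelia, was also highest in those 4 libraries, at 105.1 to 135.2 CPM against 18.07 to 39.28 CPM elsewhere. Upk1b (91.55 to 124.3 against 22.72 to 39.05 CPM) and Krt8 of the mesothelial list did the same. So did the smooth muscle genes Myh11 (421.9 to 551.4 against 35.82 to 93.39 CPM), Cnn1, Tagln and Acta2. Rgs5, Cspg4, Des and Kcnj8 of the smooth muscle and pericyte list did not. Genes of lung epithelium summed to 35.93, 39.76 and 26.86 CPM in KO1, KO2 and KO5 and to at most 6.002 CPM in the rest, all WT libraries included. Surfactant protein C, Sftpc, supplied 24.66, 24.26 and 17.19 CPM of these. KO2, KO3 and WT1 had Y-linked RNA and almost no Xist, so males and females are mixed unevenly in both groups. In all, the largest axis of variation among the 12 libraries (31.71% of variance) set KO0, KO1 and WT1 on one side and KO4 far out on the other, and did not separate the genotypes. In whole muscle RNA, fewer cells of a kind and less RNA per cell cannot be told apart.

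**Figure D1:**
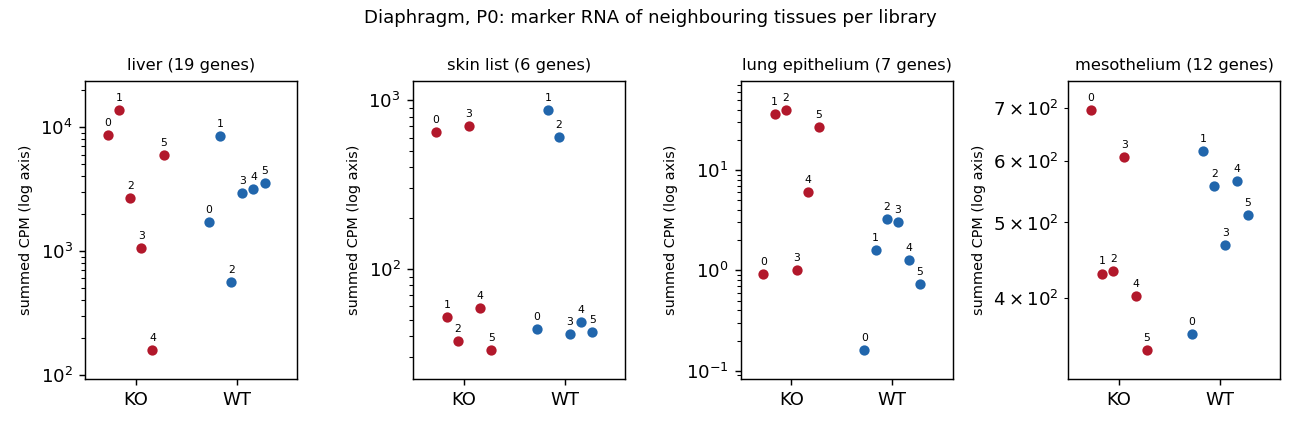
Summed CPM (log axis) of the measured marker genes of liver, the skin list, lung epithelium and mesothelium in each diaphragm library; a point is 1 library and carries its column number. Liver RNA is highest in KO1 and lowest in KO4, and the skin list is high in KO0, KO3, WT1 and WT2. Lung RNA is highest in KO1, KO2 and KO5, and the mesothelial sum stays between 343.4 and 697 CPM.

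Myh3 RNA was present in every KO library. Its level was 1983, 1985, 1474, 956.6, 1331 and 1638 CPM in KO0 to KO5, and 1506, 882.2, 1218, 1353, 721.2 and 1117 CPM in WT0 to WT5. The groups overlapped, and 5 of 6 KO libraries lay above the WT median. The log2 change of KO over WT was 0.46 ± 0.20 (SE). By edgeR's quasi-likelihood test the unadjusted p was 0.0383, and with Benjamini-Hochberg adjustment it was 0.9996. Counts summed over the whole gene (chromosome 11, 67078300 to 67102291, plus strand, mm10) do not show whether part of it is missing, so they neither check nor contradict the labels. KO below means the genotype as labelled.

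The clearest difference in the diaphragm was in Ankrd2, an ankyrin repeat protein that binds titin in the sarcomere and whose RNA is known to increase when muscle is stretched. Ankrd2 stood at 185.1, 176.9, 322.7, 298.9, 292.6 and 306.3 CPM in KO0 to KO5, and at 129.9, 85.5, 80.77, 100.8, 94.96 and 96.78 CPM in WT0 to WT5. Every KO library was above every WT library, and KO0 and KO1 were the lowest of the KO group. Ankrd2 rose by 1.43 ± 0.17 (log2, SE; adjusted p = 0.0142, edgeR). It was the single gene of 14487 to pass, 0.00690% of those tested. At an unadjusted p under 0.05 there were 604 genes (4.17%), 378 of them higher in KO (2.61%) and 226 lower (1.56%). That 4.17% is below the share that a p threshold of 0.05 allows by chance.

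The size of the Ankrd2 difference was steady, but the call was not. With 1 library left out at a time its log2 change stayed between 1.36 and 1.52, while its adjusted p ran from 0.00364 to 0.0889 and it passed in 4 of 12 such fits, those without KO0, KO1, KO4 or WT0. With summed liver RNA as a covariate it passed along with Csrp3, Trib1 and Btg2, and with the skin list as a covariate it passed alone. It did not pass when the 4 libraries rich in the skin list (KO0, KO3, WT1 and WT2) or the 3 with the most lung RNA (KO1, KO2 and KO5) were removed, with log2 changes between 1.37 and 1.64 over all 16 other settings.

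The next genes by p were Csrp3 and Btg2, which did not pass the test. Csrp3 encodes muscle LIM protein, a component of the Z-disc. Its level was 391.4, 394.7, 429.3, 282.6, 268.5 and 308.2 CPM in KO0 to KO5 and 213.5, 172, 128.3, 194.9, 159.9 and 174 CPM in WT0 to WT5, with no overlap (log2 change 0.99 ± 0.14, adjusted p = 0.0635, edgeR). Btg2, an antiproliferative immediate early gene, was at 70.54, 88.69, 118.1, 107.6, 69.86 and 89.62 CPM in KO0 to KO5. In WT0 to WT5 it was at 42.69, 53.18, 30.86, 43.75, 52.9 and 39.43 CPM, again with no overlap (1.05 ± 0.16, adjusted p = 0.0635, edgeR). Maff, a small Maf transcription factor ranked further down, was at 15.13 to 27.67 CPM in KO (median 17.58) and 6.996 to 13.54 CPM in WT (median 9.181). The groups were apart there too, with a log2 change of 1.01 ± 0.21 (adjusted p = 0.309, edgeR). Arl4d, an ARF-like small GTPase, ranged from 10.65 through a median of 14.77 to 45.68 CPM in KO and from 4.665 through 5.747 to 10.42 CPM in WT. The groups were apart by a narrow margin, and KO3 alone held the 45.68 CPM (1.52 ± 0.35, adjusted p = 0.443, edgeR). These 5 genes, Ankrd2 included, are those on the authors' deposited short list for diaphragm, and they were described first for that reason. By p they ranked 1, 2, 3, 13 and 22.

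Complete separation of the groups was counted over all genes. The number that chance alone gives was not computed, so the counts are a description and are not read as an excess. All 6 KO libraries lay above all 6 WT libraries for 19 genes (0.131%) and below them for 17 genes (0.117%). Among the 12 genes with the smallest p in the higher direction, those so separated were Ankrd2, Csrp3, Btg2, Maff, Pdxk, Tiparp, Hsph1 and Sik1. They were ranked by p on the same values, so their separation adds no support. Pdxk, the kinase that makes active vitamin B6, was at 12.28 to 15.85 CPM in KO and 9.328 to 10.79 CPM in WT (log2 change 0.54 ± 0.09). Tiparp, a mono-ADP-ribosyltransferase induced through the aryl hydrocarbon receptor, was at 38.35 to 67.65 CPM in KO and 24.69 to 32.85 CPM in WT (0.69 ± 0.13). Sik1, a salt-inducible kinase, was at 207.9 to 341.7 CPM in KO and 124.4 to 189.2 CPM in WT (0.71 ± 0.15). The chaperone Hsph1 differed less, at 64.52 to 81.64 CPM in KO against 50.07 to 62.94 CPM in WT (0.41 ± 0.08). The other genes of the 12 overlapped between the groups. They were the pseudokinase Trib1 (0.72 ± 0.14), the cyclic AMP phosphodiesterase Pde4d (0.74 ± 0.15), the secreted matrix protein Adamtsl2 (0.70 ± 0.14) and the kinase Sgk1 (0.54 ± 0.12). Adjusted p-values of these genes from Pdxk to Sgk1 lay between 0.157 and 0.370 (edgeR).

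In the lower direction no gene passed with edgeR, beside the 226 at an unadjusted p, and DESeq2 called 7. Chst5, a carbohydrate sulfotransferase, came nearest. It stood at 0.9226, 0.7927, 0.6975, 0.7205, 0.778 and 0.5547 CPM in KO0 to KO5 and at 1.21, 1.511, 2.411, 2.463, 2.634 and 1.676 CPM in WT0 to WT5. The groups did not overlap, at a low level in every library (log2 change -1.39 ± 0.24, adjusted p = 0.154, edgeR). Atp9a, of the lipid-transporting ATPase family, was at 66.36 to 92.12 CPM in KO and 96.61 to 124.9 CPM in WT (-0.47 ± 0.09). The chemokine Ccl21a was at 9.112 to 15.5 CPM in KO and 15.59 to 20.77 CPM in WT (-0.69 ± 0.14), and it has near-identical copies among which its reads may be divided. Kera, the proteoglycan keratocan of tendon and cornea, was at 23.95 to 59.89 CPM in KO and 62.15 to 77.24 CPM in WT (-0.80 ± 0.20). Fam220a (-0.37 ± 0.09) and the ubiquitin ligase Rnf144a (-0.26 ± 0.07) were also lower in every KO library than in every WT library. Stmnd1 (-1.10 ± 0.23), the kinase Sbk2 (-0.81 ± 0.20), the sodium pump regulator Fxyd6 (-0.43 ± 0.11), Tbc1d8 (-0.36 ± 0.10) and Pdzrn3 (-0.37 ± 0.10), a ubiquitin ligase that binds the receptor MuSK of the neuromuscular junction, overlapped slightly. So did Myl3, described with the fibre types. Adjusted p-values of these 11 genes after Chst5 ran from 0.253 to 0.682 (edgeR). Without KO0 and KO1 edgeR called 37 genes lower (0.252%), with Chst5, Atp9a, Ccl21a, Kera and Myl3 among them. That fit takes libraries from KO alone, and with WT1 left out as well 10 genes were called lower. Passes in it, here and below, are therefore given as a description. In a fit of all 48 libraries edgeR called 8 lower in diaphragm (0.0530%), with Fam220a and Fxyd6 among them.

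**Figure D2:**
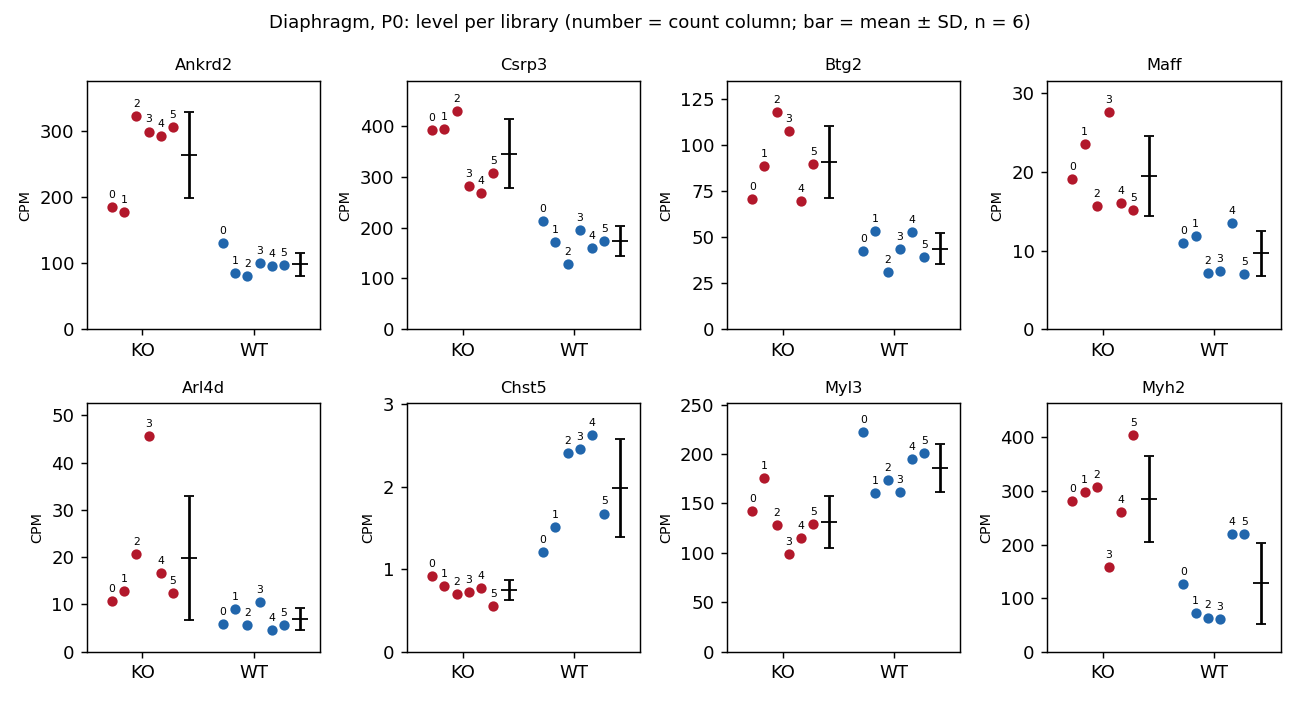
CPM of 8 genes in each diaphragm library (points, with column numbers), with the mean and SD of each group of 6. Ankrd2, Csrp3, Btg2, Maff and Arl4d lie higher in every KO library, Chst5 lies lower in every KO library, and Myl3 and Myh2 overlap between the groups.

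The promoter windows of the 5 genes of that short list are shown so that sarcomere genes (Ankrd2 and Csrp3), early response genes (Btg2 and Maff) and Arl4d can be set side by side. Each runs from 250 bases before to 50 bases after the start of a RefSeq transcript (GRCm38.p6), 5′ to 3′ on the gene's strand. Capitals mark TGACGTCA, the palindromic cyclic AMP response element, or TATAAA, the TATA box, each searched on both strands.
Ankrd2, chr19:42035777-42036076, plus strand: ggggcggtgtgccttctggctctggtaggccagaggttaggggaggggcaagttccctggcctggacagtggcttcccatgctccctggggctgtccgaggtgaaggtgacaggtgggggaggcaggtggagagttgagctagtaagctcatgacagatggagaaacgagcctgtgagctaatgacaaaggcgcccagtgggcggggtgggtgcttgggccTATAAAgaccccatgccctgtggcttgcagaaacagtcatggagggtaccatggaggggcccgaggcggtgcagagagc
Csrp3, chr7:48848002-48848301, minus strand: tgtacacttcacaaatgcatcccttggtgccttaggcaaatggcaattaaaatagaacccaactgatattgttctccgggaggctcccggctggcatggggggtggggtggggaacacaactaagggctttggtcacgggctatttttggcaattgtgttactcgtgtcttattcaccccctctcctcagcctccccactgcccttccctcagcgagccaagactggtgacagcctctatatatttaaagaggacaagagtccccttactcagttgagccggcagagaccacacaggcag
Btg2, chr1:134079106-134079405, minus strand: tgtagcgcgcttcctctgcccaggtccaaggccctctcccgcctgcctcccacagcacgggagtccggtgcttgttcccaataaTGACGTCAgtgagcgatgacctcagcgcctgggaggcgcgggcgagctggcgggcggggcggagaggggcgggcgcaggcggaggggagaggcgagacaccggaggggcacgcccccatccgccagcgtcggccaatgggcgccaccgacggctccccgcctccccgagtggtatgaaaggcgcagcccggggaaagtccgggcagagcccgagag
Maff, chr15:79347270-79347569, plus strand: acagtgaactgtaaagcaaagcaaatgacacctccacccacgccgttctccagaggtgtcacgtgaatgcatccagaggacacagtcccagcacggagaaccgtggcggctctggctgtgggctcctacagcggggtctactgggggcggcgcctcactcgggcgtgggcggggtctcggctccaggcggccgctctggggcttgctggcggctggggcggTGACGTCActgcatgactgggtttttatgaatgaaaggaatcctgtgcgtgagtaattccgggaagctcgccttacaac
Arl4d, chr11:101665291-101665590, plus strand: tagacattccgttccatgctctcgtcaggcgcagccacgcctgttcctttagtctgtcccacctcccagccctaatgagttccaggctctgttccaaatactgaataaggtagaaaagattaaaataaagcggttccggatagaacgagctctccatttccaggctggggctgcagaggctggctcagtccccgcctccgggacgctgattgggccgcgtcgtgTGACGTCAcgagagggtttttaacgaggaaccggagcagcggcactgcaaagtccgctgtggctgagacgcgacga

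Counted from the transcript start, TGACGTCA began at base -166 in Btg2, -29 in Maff and -26 in Arl4d, and TATAAA at -29 in Ankrd2. The Csrp3 window held neither. TGACGTCA stood in 588 of all 32851 windows (1.79%), or in 549 of 27025 genes (2.03%). It stood in 3 of the 19 tested immediate early genes with a window (Btg2, Maff and Dusp1) and in 0 of 13 sarcomere strain genes. Of the 12 genes with the smallest p in each direction, 10 of the higher genes had a window and 2 of these held it, while 1 of 12 lower genes, Fam220a, did. TATAAA stood in 13.6% of windows. The AP-1 motif TGANTCA, present in 7.81% of windows, was in none of the 5. The MCAT motif CATTCC, present in 14.7% of windows, was in 1 of the 5 (Arl4d, at -246). Counted by gene it was in 16.6% of all genes and in 5 of 13 strain genes, namely Ankrd1, Hspb7, Hspb1, Flnc and Ankrd23. The CArG box and the MEF2 motif were in none of the 5 windows and in 1.63% and 3.19% of all windows. A match is only a match of letters, and binding was not measured.

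Genes of sarcomere strain and the Z-disc were mostly higher in KO, and Ankrd2 was the single member to pass with edgeR. Csrp3, which is on this list, was called by DESeq2, with the liver covariate and in the fit of 48 libraries. Of 15 tested, 14 had a log2 change above 0 and 6 were higher at an unadjusted p under 0.05, beside the 2.61% of all genes that were. The list's median was 0.36, where that of all 14487 genes was 0.01. This list and those below were chosen with earlier results of these data known, so such counts are a description. Ankrd1, the cardiac and stress-induced relative of Ankrd2, was at 34.33 to 69.62 CPM in KO and 15.67 to 39.13 CPM in WT (log2 change 0.91 ± 0.23). The small heat shock proteins Hspb7 (0.49 ± 0.13) and Hspb1 (0.48 ± 0.15) and filamin C, Flnc (0.36 ± 0.13), overlapped between the groups in the same direction. Without KO0 and KO1 the list's median was 0.26 and 3 members passed (Ankrd2, Csrp3 and Hspb7), with 5 higher at an unadjusted p beside 8.27% of all genes in that fit.

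Immediate early genes, the transcription factors and signal dampers that cells induce within minutes of a stimulus, had the highest median of the pathway lists, 0.40. Of 24 tested, 23 had a log2 change above 0, 11 were higher at an unadjusted p under 0.05 beside 2.61% of all genes, and none passed the adjusted test with edgeR. Btg2 was called by DESeq2, by limma and in the fit of 48 libraries, and Maff by DESeq2. Btg2 and Maff led by p. Egr1, a zinc finger factor, was at 20.69 to 91.55 CPM in KO and 17.28 to 58.24 CPM in WT (0.97 ± 0.36), and the stress factor Atf3 at 32.4 to 69.67 CPM in KO and 13.26 to 59.97 CPM in WT (0.82 ± 0.32). Fos itself overlapped widely (0.48 ± 0.35). The AP-1 subunit Fosb had the largest log2 change of the list, 1.67 ± 0.70, but it was -0.04 without KO0 and KO1. Without those libraries 5 of the 24 were higher at an unadjusted p beside 8.27% of all genes, Btg2 passed, and the median was 0.26.

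FoxO target and atrophy genes had a median of 0.39, with 16 of 18 above 0, 3 higher at an unadjusted p beside 2.61% of all genes, and none past the adjusted test with edgeR. Foxo1, the forkhead factor itself, ranged from 61.03 through a median of 99.63 to 144 CPM in KO and from 52.22 through 67.06 to 82.08 CPM in WT, with overlap (0.60 ± 0.18, adjusted p = 0.841, edgeR). Fkbp5, a glucocorticoid-induced chaperone partner, was at 135.5 to 300.9 CPM in KO and 36.57 to 239.4 CPM in WT (0.82 ± 0.36). The muscle ubiquitin ligases Trim63 (187.3 to 1223 CPM in KO, 152.7 to 539.9 in WT; 0.77 ± 0.45) and Fbxo32 (73.95 to 901.7 in KO, 195.2 to 488.7 in WT; 0.51 ± 0.51) varied most within KO. Unlike the strain and early response lists, this list's median was larger without KO0 and KO1, at 0.60, where 11 of 18 were higher at an unadjusted p beside 8.27% of all genes, and Foxo1 and Bnip3 passed.

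The other myosin heavy chains pointed both ways. Of the 9 measured besides Myh3, of which 8 are sarcomeric and Myh14 is a non-muscle chain, 4 had a log2 change above 0 and none passed (edgeR). Myh2, the chain of fast oxidative fibres, was at 280.9, 298.6, 308.3, 157.5, 261.2 and 403.7 CPM in KO0 to KO5 and at 126.4, 72.25, 63.74, 61.32, 220.1 and 220.4 CPM in WT0 to WT5. KO3 fell inside the WT range, while the other KO libraries lay above it (log2 change 1.16 ± 0.35, adjusted p = 0.778, edgeR). Myh1, also adult fast, was at 1889 to 3961 CPM in KO and 1236 to 2876 CPM in WT (0.66 ± 0.23). Myh4, the chain of the fastest fibres, went the other way at 155.5 to 340.1 CPM in KO and 279.1 to 490.8 CPM in WT, overlapping (-0.59 ± 0.21). Adjusted p-values of Myh1 and Myh4 were 0.989 and 0.9996 (edgeR).

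Perinatal Myh8, by far the most abundant chain per length, was level. It stood at 17580 to 32690 CPM in KO and 19770 to 30770 CPM in WT (-0.04 ± 0.15), or 2177 and 2239 CPM per kb on average, against 257.7 and 187.1 CPM per kb for Myh3. Slow Myh7 was also close between the groups at 1341 to 2423 CPM in KO and 1498 to 2231 CPM in WT (-0.08 ± 0.15). Myh7b (-0.53 ± 0.37), Myh13 (0.18 ± 0.26) and Myh14 (-0.02 ± 0.18) overlapped. Myh6, the atrial chain, had a log2 change of 1.28 ± 0.76 that rests on KO3, where it reached 61.02 CPM against at most 15 CPM in the other KO libraries. Without KO3 it was -0.11. KO3 also had the atrial transcripts Nppa and Myl7 at 8.43 and 14.34 CPM, and the part of heart RNA in the Myh6 value was not tested.

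Slow fibre genes leaned lower. Of 14 tested, 10 had a log2 change below 0, 4 were lower at an unadjusted p under 0.05 beside 1.56% of all genes, and the median was -0.21. The slow essential light chain Myl3 was at 142.4, 176, 128, 98.99, 114.6 and 129.6 CPM in KO0 to KO5 and 222.2, 160.1, 173.6, 162, 194.9 and 201.4 CPM in WT0 to WT5. KO1 alone overlapped the WT range (-0.50 ± 0.13, adjusted p = 0.682, edgeR). Slow tropomyosin Tpm3 (-0.33 ± 0.10), the regulatory light chain Myl2 (-0.34 ± 0.15) and slow troponin C, Tnnc1 (-0.25 ± 0.11), also overlapped. Csrp3 is counted in this list too and is the member that went the other way at an unadjusted p. Without KO0 and KO1, 7 of 14 were lower at an unadjusted p beside 7.22% of all genes, the median was -0.33, and Myl3 passed as lower and Csrp3 as higher. Fast fibre genes had 11 of 15 below 0 and a median of -0.05, with Myh1 and Myh2 higher and Myh4 lower at an unadjusted p. Without KO0 and KO1 their median was -0.17. In that fit 6 of 15 were lower and 2 higher at an unadjusted p, beside 7.22% and 8.27% of all genes.

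Most neuromuscular junction genes and most tendon genes had a log2 change below 0, and none passed (edgeR). Of 12 neuromuscular junction genes 10 were below 0, 2 of them at an unadjusted p beside 1.56% of all genes, with a median of -0.11. These were Rapsn, which clusters acetylcholine receptors, at 34.44 to 43.48 CPM in KO and 42.21 to 49.96 CPM in WT (-0.22 ± 0.08), and Colq, the collagen tail of acetylcholinesterase, at 7.565 to 25.37 CPM in KO and 21.42 to 24.85 CPM in WT (-0.52 ± 0.21). Of 7 tendon genes 6 were below 0 and 3 were lower at an unadjusted p, beside the same 1.56%, namely Kera, tenomodulin Tnmd (-0.47 ± 0.17) and the tendon factor Scx (-0.44 ± 0.20). Egr1, which this list shares with the early response list, was the member above 0. The same 7 genes summed to 506.8 to 728 CPM in KO and 617.3 to 750.6 CPM in WT. The collagen and matrix list was 14 of 18 below 0, with a median of -0.09 and none at an unadjusted p, led by Col12a1 (-0.19 ± 0.12) and tenascin C, Tnc (-0.17 ± 0.12). It moved to -0.24 without KO0 and KO1, where 10 of 18 were lower at an unadjusted p beside 7.22% of all genes, and fibroblast markers, which summed to 11590 to 16950 CPM in KO and 14380 to 15850 CPM in WT, were highest in KO0 and KO1. The part of fibroblast or tendon RNA in these values was not tested.

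Lists of myogenesis lay close to 0. Progenitor genes (16 tested) had a median of 0.01, or -0.04 without KO0 and KO1, with none at an unadjusted p in all 12 libraries, and their leading members Six4 (0.31 ± 0.16) and Calcr (-0.37 ± 0.21) pointed in opposite directions. Differentiation and fusion genes (14 tested) had a median of 0.03. The myogenic factor Myog was at 100.3 to 139 CPM in KO and 91.63 to 116.8 CPM in WT (0.24 ± 0.10), and Myf6 overlapped more widely (0.52 ± 0.33). Developmental isoforms (10 tested) had a median of 0.07, or -0.04 without KO0 and KO1, led by the embryonic light chain Myl4 (0.21 ± 0.10), with fetal troponin T, Tnnt2, at 0.08 ± 0.09. Cell cycle genes were 14 of 19 above 0 with a median of 0.12 that became -0.07 without KO0 and KO1, and their leading members Top2a (0.22 ± 0.14) and Cdk1 (0.21 ± 0.15) were not at an unadjusted p under 0.05. Diaphragm development genes, the factors of the pleuroperitoneal folds among them, were 11 above and 11 below 0, with a median of 0.01 that became -0.06 without KO0 and KO1. Their leading members were Zfpm2 (-0.21 ± 0.12) and Rara (-0.11 ± 0.08).

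Signalling and metabolic lists held few differences in the 12 libraries. The FGF feedback list had a median of 0.10, with the phosphatase Dusp6 lower at an unadjusted p (-0.48 ± 0.17) and its relative Dusp5 the other way (0.60 ± 0.28). In the myostatin list the median was 0.09, and the 2 genes at an unadjusted p were myostatin itself, Mstn, at 55.12 to 120.7 CPM in KO and 43.48 to 67.31 CPM in WT (0.58 ± 0.19), and the receptor Acvr1b (0.32 ± 0.13). Hypoxia response genes had a median of 0.16, with Ndrg1 (0.39 ± 0.17) and the glucose transporter Slc2a1 (0.58 ± 0.26) at an unadjusted p. Glycolysis genes had a median of -0.08, with Gapdh, whose many pseudogenes can take its reads, lower at an unadjusted p (-0.38 ± 0.15). Oxidative phosphorylation genes had a median of -0.03 and included the coactivator Ppargc1a (0.43 ± 0.37) and the mitochondrial factor Tfam (-0.12 ± 0.11). Calcium handling genes had a median of -0.04, led by Stac3 (-0.24 ± 0.15), which excitation-contraction coupling needs, and the calcium pump inhibitor Sln (-0.18 ± 0.12). Fasting genes had a median of -0.10, which turned to 0.07 without KO0 and KO1, with the uncoupling protein Ucp2 at -0.23 ± 0.14. In that list Lpin1, a regulator of lipid synthesis and oxidation, was at 175.9 to 602.5 CPM in KO and 117.2 to 297.3 CPM in WT (0.75 ± 0.31). Clock genes had a median of 0.01, with Arntl (0.52 ± 0.18) and its repressor Nr1d1 (-0.51 ± 0.23) in opposite directions. Every adjusted p of the genes named for these lists was 0.888 or more in the 12 libraries (edgeR). Without KO0 and KO1, Dusp6 passed as lower (adjusted p = 0.0401, edgeR) and Arntl as higher (adjusted p = 0.0415, edgeR). Bnip3, which the hypoxia list shares with the atrophy list, passed as higher too. In that fit 5 of 17 glycolysis genes were lower and 2 higher at an unadjusted p, beside 7.22% and 8.27% of all genes.

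**Figure D3:**
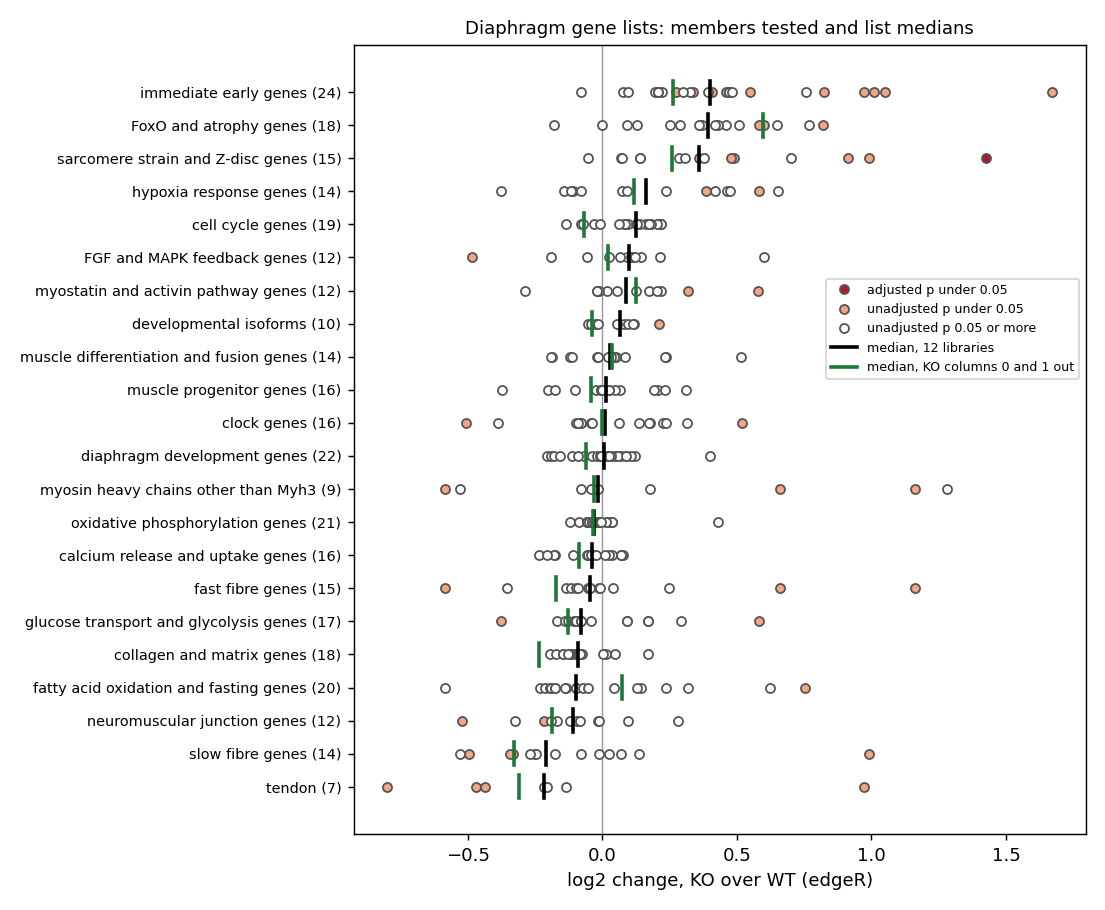
Log2 change of KO over WT for every tested member of each list (points; number tested in brackets; dark red, adjusted p under 0.05; orange, unadjusted p under 0.05; white, the rest), with the list's median in all 12 libraries (black bar) and without KO0 and KO1 (green bar). Early response, atrophy and strain genes have medians of 0.36 to 0.40, slow fibre and tendon genes medians of -0.21 and -0.22, and Ankrd2 is the dark red point.

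KO0 and KO1 differed from the other KO libraries in many of the genes that passed once they were left out. With both left out, 35 genes passed as higher in KO (0.238% of 14711 tested) and 37 as lower (0.252%), by edgeR at an adjusted p of 0.05. For 47 of these 72 genes KO0 and KO1 lay, on average, on the other side of the WT mean from KO2 to KO5, and for 25 on the same side. The 72 genes were picked with KO0 and KO1 left out, which favours genes in which these libraries differ from KO2 to KO5. The count of 47 and the genes named next are therefore a description, and the share over all genes was not computed. Plcd4, a phospholipase C, was at 3.46 to 6.67 CPM in KO2 to KO5 and 11.98 to 19.87 CPM in WT, but at 36.1 CPM in KO0 and 41.7 CPM in KO1. Gatm, which makes the precursor of creatine, averaged 61.4 CPM in KO2 to KO5, 111 in WT and 217 in both KO0 and KO1. The Wnt antagonist Frzb averaged 14.5 CPM in KO2 to KO5, 30.7 in WT and 56.5 and 54.3 in KO0 and KO1. In these genes WT lay between the 2 parts of the KO group.

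The opposite order was found in other genes. Pank1, which starts the synthesis of coenzyme A, averaged 77.9 CPM in KO2 to KO5 and 44.7 in WT, with 18.7 and 22.1 in KO0 and KO1. Lrrc2 averaged 147 and 78.9 CPM, with 37.4 and 43.8 in KO0 and KO1. Ampd3, an AMP deaminase, averaged 52.1 and 18.7 CPM, with 14.5 and 11.5 in KO0 and KO1. Ankrd2, Btg2 and Csrp3 differed from these, since KO0 and KO1 were above every WT library in each. Ankrd2 was 1.64 ± 0.12 without KO0 and KO1 (adjusted p = 0.000192, edgeR). KO0 and KO1 had 2 of the 3 highest liver sums and were both female by Xist, as were KO4 and KO5. The liver list's median turned from 0.63 to -0.33 when they were left out. With WT1, the other library with a high liver sum, left out too, 16 genes passed, Ankrd2, Plcd4, Gatm, Frzb and Btg2 among them.

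**Figure D4:**
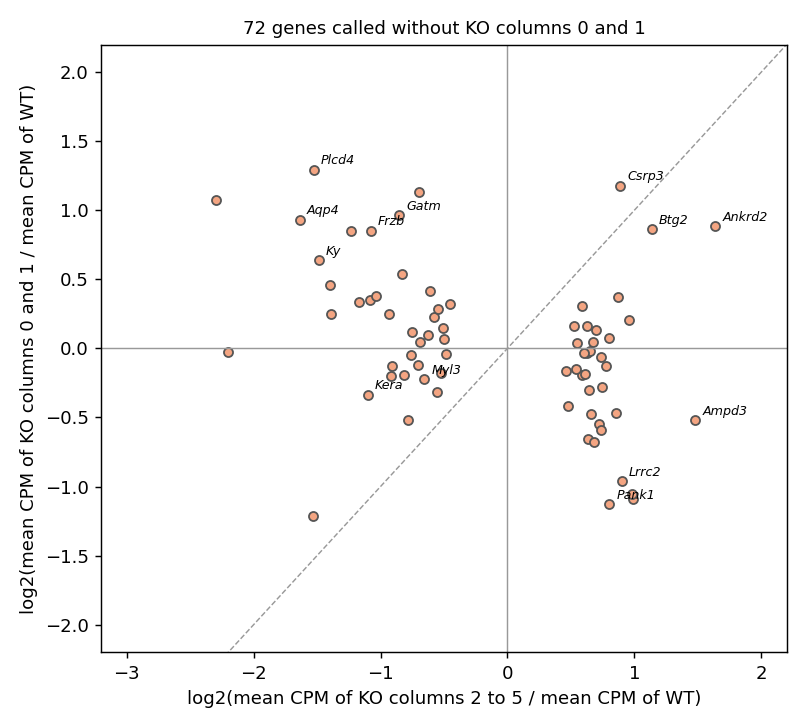
The 72 genes that passed without KO0 and KO1, each as a point, with the log2 ratio of KO2 to KO5 over WT on one axis and that of KO0 and KO1 over WT on the other. In 47 of the 72 the 2 ratios have opposite signs, as for Plcd4, Gatm, Frzb, Lrrc2 and Pank1, while Ankrd2, Csrp3 and Btg2 are above 0 in both. The genes were picked with KO0 and KO1 left out, so the count is a description.

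Set beside limb muscle, the diaphragm effect was not shown to differ for any gene with edgeR in the fit of all libraries, and few genes were called in other settings. In 1 fit of all 48 libraries the effect in diaphragm minus the mean effect in the 3 limb muscles passed for 0 of 15090 genes (0%), with 460 at an unadjusted p under 0.05 (3.05%), by edgeR. limma with sample quality weights called 1 gene, Hr (adjusted p = 0.0222). Without KO0 and KO1 of every muscle edgeR called 11 genes, Hr, Ptgds, Lgi3 and Sln among them. The columns are not tied to animals, so muscles of 1 animal may enter as separate libraries. Diaphragm libraries varied more than limb libraries, with a biological coefficient of variation of 0.243 against 0.165 to 0.168. Across the 15090 genes the log2 changes in diaphragm correlated with those in quadriceps at 0.436, in tibialis anterior at 0.346 and in gastrocnemius at 0.346, as a description over genes, which are not independent.

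The leading genes had these effects in the 4 muscles. The log2 change of Ankrd2 in the joint fit was 1.42 ± 0.43 in diaphragm, 1.58 ± 0.44 in quadriceps, 0.20 ± 0.43 in tibialis anterior and 3.05 ± 0.47 in gastrocnemius. The difference between diaphragm and the limb mean was -0.19 ± 0.49 (adjusted p = 0.9998, edgeR), and in this fit, where all muscles share 1 estimate of spread, the diaphragm effect of Ankrd2 did not pass (adjusted p = 0.272). Ankrd2 was lowest in KO0 and KO1 among the KO libraries of every muscle, at 104 and 94.94 CPM against 262 to 597 in quadriceps, 38.65 and 35.62 against 203.1 to 362.7 in tibialis anterior, and 40.45 and 34.75 against 97.1 to 216.3 in gastrocnemius. In WT, Ankrd2 was at 52.7 to 164.2 CPM in quadriceps, 104.3 to 212.8 in tibialis anterior and 9.131 to 24.61 in gastrocnemius. KO0 and KO1 thus lay inside the WT range in quadriceps, below it in tibialis anterior and above it in gastrocnemius. Equal column numbers in different muscles are not known to be the same animal.

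Btg2 was higher in KO in all 4 muscles, at 1.05, 0.86, 0.52 and 0.64 in diaphragm, quadriceps, tibialis anterior and gastrocnemius, and passed in diaphragm in the joint fit (adjusted p = 0.000235, edgeR). Csrp3 was at 0.99, 1.13, 0.08 and 0.96 in the same order, with an adjusted p of 0.00917 in diaphragm. The joint fit called 22 genes higher (0.146%) and 8 lower (0.0530%) in diaphragm, among them Trib1, Tiparp and Arl4d as higher and Fxyd6 as lower. A call in this fit can rest on 1 library. Slc6a11 was called as higher (adjusted p = 0.0390, edgeR), at 12.7 CPM in KO0 and at most 0.333 CPM in every other diaphragm library. Myl3 was lower in all 4, at -0.50, -1.01, -0.84 and -0.58. Myh3 itself was at 0.46, -0.01, -0.37 and 0.12, and its difference from the limb mean was 0.55 ± 0.16 (adjusted p = 0.580, edgeR).

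The genes nearest to a difference from limb muscle are given as values that did not pass. Asb2, a substrate receptor of ubiquitin ligases in muscle, had a log2 change of -0.32 in diaphragm and 0.31, 0.38 and 0.33 in quadriceps, tibialis anterior and gastrocnemius, a difference of -0.66 ± 0.13 (adjusted p = 0.125, edgeR). Padi2, an enzyme that converts arginine in proteins to citrulline, was at 0.58, -0.25, -0.19 and -0.01, a difference of 0.73 ± 0.15 (adjusted p = 0.159, edgeR). In the diaphragm fit Padi2 ranged from 15.27 to 32.24 CPM in KO and from 10.92 to 22.67 CPM in WT. Leaving out single diaphragm libraries let Padi2 pass without KO3, KO4, WT0 or WT4, and Asb2 without KO4, WT1 or WT5. The others lower in diaphragm relative to limb were the corepressor Hr (difference -0.77), Asb14 (-1.17), Ndnl2 (-0.38), Fxyd6 (-0.39) and Tmem131 (-0.29). The others higher were Dapk2 (0.71), Lgi3 (1.37), the prostaglandin synthase Ptgds (0.91), the initiation factor Eif2s1 (0.28) and Slc6a11, whose 3.32 rests on KO0 at 12.7 CPM where no other diaphragm library exceeded 0.333 CPM.

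**Figure D5:**
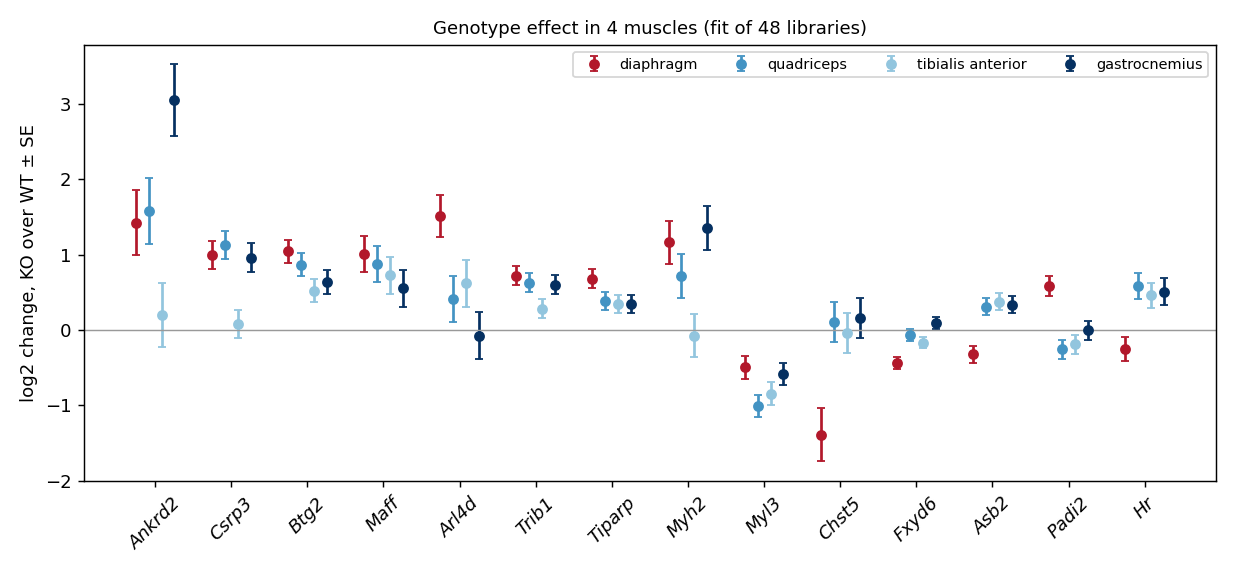
Log2 change of KO over WT with its SE in diaphragm, quadriceps, tibialis anterior and gastrocnemius for 14 genes, from the fit of 48 libraries. Btg2 is above 0 and Myl3 below 0 in all 4 muscles, while Asb2 is at -0.32 in diaphragm and 0.31 to 0.38 in limb muscle.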

How the data were processed

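Per the labels, muscles were flash frozen and libraries were stranded and selected with oligo dT. The submitters' processing notes name Picard and mm10, and no aligner is named in them (not given in the sources used here). The deposited counts, per the file headers, are unnormalised alignments over a gene's exons, mates counted once, and other columns hold exonic base pairs and identifiers. The authors left out genes under 10 counts and, as too high, H19, Acta1 and mt-Co1. Their 24 other diaphragm columns per sample (96 over the 4 tables) and 1 line without values were not used. Starts were raised by 1.

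Counts were fitted with edgeR 4.0.16 in R 4.3.3 (filterByExpr, TMM, quasi-likelihood F test, Benjamini-Hochberg at 0.05), KO against WT. SE is the log2 change, unsigned, divided by the root of F. A fit of 48 libraries tested diaphragm minus limb. Both were tested on simulated data. No library repeated another. Named were Myh3, the other measured myosin heavy chains of the list, the 12 genes of smallest p in each direction (6 against limb), 2 per list by p, and the authors' short list, passing over predicted names; other names were picked after their values were seen. Members and lists were chosen with earlier results of these data known. Lists have no test of their own; no median of 0.05 or more in size changed sign with RLE or upper-quartile scaling. Alternatives were other scalings, no filter, DESeq2 1.42.0, limma 3.58.1, covariates (liver, mesothelium, skin list, sex-linked RNA) and leaving libraries out.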

Additional observations from a re-analysis of the deposited data

Results flagged for a closer look

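Of 188 groups of 6 libraries examined over 94 genes and marker sums, 11 (5.85%) had a library standing far from the other 5. Chance gives about 1 in 20 for independent items. Many of the items were picked by their values, Slc6a11 among them, so that share is only a rough mark. In KO3 the outlying values were Myh6 at 61 CPM (1.55 to 15 in the others), Arl4d at 45.7 CPM (10.6 to 20.6) and Acvr1b at 45.5 CPM (30.9 to 36.2). In KO4 Tfam was at 66.5 CPM (44.3 to 52.3), and in KO0 Slc6a11 was at 12.7 CPM (0.216 to 0.333). In WT1 Ndrg1 was at 62 CPM (36.4 to 42.4), the summed granulocyte and mast cell markers at 300 CPM (74.8 to 136) and the summed skeletal muscle markers at 75100 CPM (93500 to 104000). Ltf supplied 141 CPM of that granulocyte and mast cell sum. It was also at 82.82, 113.7 and 82.94 CPM in KO0, KO3 and WT2, the other libraries rich in the skin list, and at most 20.61 CPM elsewhere. The remaining libraries were WT0, with Hsph1 at 62.9 CPM (50.1 to 53.8), WT3, with Colq at 21.4 CPM (23.6 to 24.8), and WT4, with Sbk2 at 32.2 CPM (14.2 to 19.2).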

How the results depend on the processing

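The count of called diaphragm genes was 1 under RLE and upper-quartile factors, without a filter, with the mesothelium or skin list covariate, and with liver and mesothelial genes removed. It was 30 with DESeq2 (5051 genes without an adjusted p), 2 with limma, 30 in the fit of all 48 libraries, 4 with the liver covariate, 3 with liver and mesothelium, 2 with the sex-linked covariate, 72 without KO columns 0 and 1, and 16 without these and WT column 1. In settings chosen after seeing the data it was 0 without KO columns 0 and 3 and WT columns 1 and 2 (458 genes at an unadjusted p under 0.05), and 0 without KO columns 1, 2 and 5 (745). With 1 library left out it ran from 0 to 4. The cause of these moves was not tested, except that the smaller sets have fewer samples.

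Ankrd2 passed in 13 of 16 settings, Btg2 in 7, Csrp3 in 5 and Trib1 in 4; Myh3 passed in none, at log2 changes of 0.19 to 0.526 (0.361 to 0.565 with 1 library left out). The count for diaphragm minus limb, 0 as reported, was 1 with limma and 11 without KO columns 0 and 1 of every muscle, and ran from 0 to 2 with 1 library left out.

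Of 76 named genes 72 kept their sign throughout. Myh6 turned to -0.111 without KO3 (up to 1.52 with another library left out). Myh8 turned to 0.0309 with the sex-linked covariate and, with 1 library left out, ran from -0.122 to 0.0435, being 0.00893 without WT5. Myh13 turned to -0.0312 without KO columns 0 and 1 and to -0.0485 without WT column 1 as well. Myh14 turned to 0.0102 (sex-linked covariate), 0.203 and 0.155 (the same removals) and 0.0629 (KO columns 1, 2 and 5 out), and ran from -0.126 to 0.0862 with 1 library left out. No paired analysis was possible because the column numbers 0 to 5 are not tied to the replicate numbers of the labels.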
